A study of Mus musculus with 10 samples.

Results

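The 39 genes described here mark T cells and natural killer (NK) cells, and they were taken by symbol from the deposited table of 37882 genes. They hold the chains of the T cell receptor and its CD3 partners, the coreceptors, the kinases and adaptors that act just below the receptor, cytokine and chemokine receptors, lineage transcription factors and NK receptors. Genes of cytotoxic granules and immune checkpoints were not part of the list. All 39 symbols were found once each in the table, and 32 of them passed the expression filter and were tested. RNA came from 10 orthotopic tumours of MCa-M3C, a single mouse mammary carcinoma cell line, in FVB/N hosts. The 5 control tumours were in mice given PBS, and the 5 others in mice given TMA-ARB holding 40 mg/kg of valsartan. Both were dosed daily for 6 days through a retro-orbital vein, from a tumour volume of about 100 mm3. TMA-ARB is an angiotensin receptor blocker made to act in the tumour microenvironment, and valsartan is the blocking drug in it. Sex and age of the hosts are not stated in the labels. Nothing in the labels ties every library to its own mouse. A p-value here sets the difference between groups against the spread of libraries within groups, and some of that spread may be technical.

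T cells recognise peptides with an alpha-beta receptor that has no signalling tail of its own. The CD3 gamma, delta and epsilon chains and the zeta chain (Cd247) carry the signal inward, where the kinase Lck phosphorylates them and the kinase Zap70 binds and passes the signal to the adaptors Lat and Lcp2. NK cells lack this receptor and read their targets with germline-encoded receptors such as those of Klrk1 (NKG2D), Klrb1c (NK1.1) and Ncr1 (NKp46), and both lineages use the transcription factors encoded by Tbx21 and Eomes and the interleukin-15 receptor chain encoded by Il2rb. The series, as far as its title tells, is about these blockers and cancer immunotherapy, in which T and NK cells are the acting cells.

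These transcripts were rare in the tumours. Library totals ran from 12742953 to 16884621 counts, and the tested members held between 125 (Cd5) and 3910 (Il2rg) counts over all 10 libraries. Values below are CPM, which are counts scaled to a common library total, here with TMM-scaled library sizes. Over all libraries 14 of the 39 members averaged under 1 CPM and 7 averaged over 5 CPM. Of the leukocyte gene Ptprc, which encodes CD45, there were 72.7 ± 19.6 CPM in controls and 64.1 ± 14.4 CPM under TMA-ARB (SD, n = 5). Mitochondrially encoded genes took a share of the counts that ran from 2.07% to 25% and was at or above 5% in 5 libraries, control replicates 3 and 4 with TMA-ARB replicates 8 to 10. Mammary epithelial markers summed to 84.0 to 242 CPM per library, and Krt18 alone averaged 101 CPM in controls and 131 CPM under TMA-ARB. Not every marker was found in every library. Krt19 had no count in control replicate 1, and Cldn4 averaged 0.0131 CPM in controls and 0.622 CPM under TMA-ARB. In bulk tumour RNA, fewer cells of a type and less RNA per cell cannot be told apart.

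No member passed the test for a difference between groups. With edgeR's quasi-likelihood test, 0 of the 32 members had an adjusted p under 0.05, against 0 of 14063 genes tested (0%), and the edgeR adjusted p was 0.997 for every member. DESeq2 called 2 genes and limma-voom with sample weights called 0, and neither tool called a member. At an unadjusted edgeR p under 0.05 there were 3 members, Klrb1c, Il2rb and Klrk1, all lower under TMA-ARB, against 1.66% of all genes tested in that direction and 3.25% in either. No member was among the 1.59% that were higher at that p. All 32 tested members had a log2 fold change (TMA-ARB over control) below 0, against 47.2% of all genes tested. Their median was -0.57, against 0.02 over all genes. Of the members 17 lay below -0.5 (6.48% of all genes) and 7 below -1 (1.21%). Many of these genes are expressed in the same cells, so their fold changes are not independent of each other. Members were also chosen with earlier results of these data known, so these shares are a description only. The uniform sign did not hold under every setting or in every subset of libraries. Limma-voom with sample weights on all 10 libraries gave 23 of the 32 negative. With edgeR and no low-count filter 36 of 39 were negative, and Cd27 (0.24), Tox (0.24) and Bcl11b (0.11) were positive. Without control replicates 1 and 2, 23 of the 32 were negative, with a median of -0.35, and without control replicate 1 alone 26 were.

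**Figure D1:**
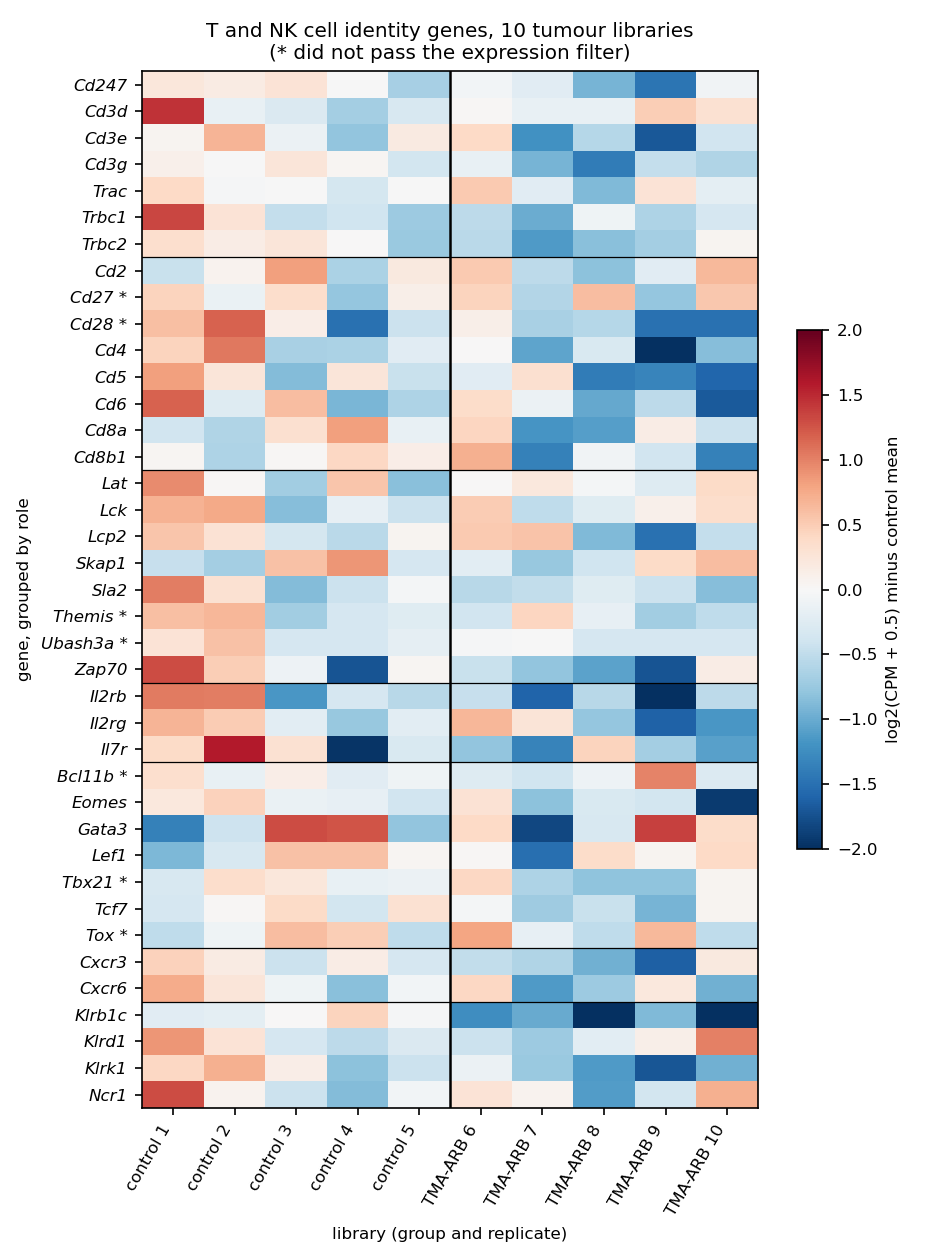
Heat map of all 39 genes (rows, grouped by role) in the 10 libraries (columns), coloured by log2(CPM + 0.5) minus the mean of the 5 control libraries. Asterisks mark the 7 genes that did not pass the expression filter. Control replicate 1 is the highest library for 13 of the tested genes, and Klrb1c is the row in which all TMA-ARB cells are bluer than every control cell.

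The 7 genes of the T cell receptor complex had a median log2 fold change of -0.72, with values from -0.89 to -0.06. Beta chain constant regions are encoded by Trbc1 (chromosome 6, 41538218 to 41539881, mm10) and Trbc2 (chromosome 6, 41546730 to 41548352), and a beta chain uses one or the other. Their first coding exons hold 375 bases each and differ in 1 base, and of all runs of 31 bases in their transcripts 44.8% of those of Trbc1 and 48.5% of those of Trbc2 occur in the other gene. The exons are at chr6:41538218-41538592 and chr6:41546730-41547104 on the plus strand of mm10. Their last 150 bases are shown from the GENCODE transcripts because reads from them are divided between the genes by estimation, with the differing base in capitals.
Trbc1: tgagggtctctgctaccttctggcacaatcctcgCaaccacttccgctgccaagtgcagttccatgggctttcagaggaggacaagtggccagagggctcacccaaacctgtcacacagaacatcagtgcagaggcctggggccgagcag
Trbc2: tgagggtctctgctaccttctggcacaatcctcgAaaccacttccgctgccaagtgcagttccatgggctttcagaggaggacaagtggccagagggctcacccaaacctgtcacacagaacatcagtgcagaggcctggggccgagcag

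Trbc1 measured 17.2, 7.95, 4.57, 4.8 and 3.76 CPM in control replicates 1 to 5 and 4.41, 3.02, 6.12, 4.09 and 5.06 CPM in TMA-ARB replicates 6 to 10. Control replicate 1 stood above all other libraries, and the other 4 controls overlapped the TMA-ARB libraries. Group means were 7.65 ± 5.56 and 4.54 ± 1.15 CPM (SD, n = 5), with a log2 fold change of -0.75 ± 0.42 (SE) that was -0.22 without control replicate 1. Trbc2 measured 6.3, 5.48, 5.87, 4.94 and 2.73 CPM in control replicates 1 to 5 and 3.2, 1.97, 2.51, 2.86 and 5.13 CPM in TMA-ARB replicates 6 to 10. Here 4 of 5 TMA-ARB libraries lay below 4 of 5 controls, while TMA-ARB replicate 10 was in the control range and control replicate 5 in the TMA-ARB range. Its log2 fold change was -0.69 ± 0.37. With the 2 rows merged, a step added after the data had been seen, the beta chain constant genes measured 12.7 ± 6.50 CPM in controls and 7.67 ± 1.93 CPM under TMA-ARB. The merged log2 fold change was -0.73 ± 0.33 (edgeR unadjusted p = 0.0456, adjusted p = 0.997). Trac, the alpha chain constant gene, measured 2.49, 1.74, 1.76, 1.29 and 1.76 CPM in control replicates 1 to 5 and 2.78, 1.44, 0.738, 2.25 and 1.48 CPM in TMA-ARB replicates 6 to 10. The groups overlapped throughout, and the log2 fold change was -0.06 ± 0.47, which turned positive when control replicate 1 (0.09) or TMA-ARB replicate 7, 8 or 10 (0.01, 0.15 and 0.007) was left out. A surface receptor takes one chain of each kind, and the difference between the alpha and beta fold changes was not tested.

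Cd3d, Cd3e and Cd3g lie together in 40056 bases of chromosome 9, and the start sites of Cd3d and Cd3g point away from each other across 1355 bases. As neighbours with start sites of their own, they are shown by the bases before each start, from RefSeq on GRCm38.p6, 5′ to 3′ on the gene's own strand and without any base of an annotated exon. Capitals mark matches, on either strand, to CTTTGA for TCF/LEF factors, AGATAA for factors of the GATA family, TGTGGT for RUNX factors, AGGAAG for ETS factors, AGGTGT for T-box factors and TATAAA for the TATA box. No TATAAA or TGTGGT match was in these 3 windows.
Cd3d, plus strand, chr9:44981536-44981785: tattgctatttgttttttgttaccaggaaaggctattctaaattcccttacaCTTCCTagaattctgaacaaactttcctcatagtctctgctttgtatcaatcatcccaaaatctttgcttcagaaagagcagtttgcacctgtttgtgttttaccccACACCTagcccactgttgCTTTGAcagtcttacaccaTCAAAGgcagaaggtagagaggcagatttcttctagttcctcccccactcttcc
Cd3e, minus strand, chr9:45009628-45009861: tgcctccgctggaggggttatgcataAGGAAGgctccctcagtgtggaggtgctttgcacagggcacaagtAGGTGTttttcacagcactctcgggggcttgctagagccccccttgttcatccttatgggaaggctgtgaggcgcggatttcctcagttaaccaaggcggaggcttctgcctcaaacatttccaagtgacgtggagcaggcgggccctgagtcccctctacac
Cd3g, minus strand, chr9:44980432-44980681: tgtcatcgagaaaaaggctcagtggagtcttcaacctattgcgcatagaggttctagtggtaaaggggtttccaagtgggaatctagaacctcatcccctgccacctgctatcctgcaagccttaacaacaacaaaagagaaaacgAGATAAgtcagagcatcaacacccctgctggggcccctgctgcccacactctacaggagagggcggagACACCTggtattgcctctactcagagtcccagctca

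AGGTGT, the core letters of sites bound by T-box factors such as those of Tbx21 and Eomes, was in all 3 windows, and 11.8% of 32851 RefSeq windows of 250 bases held it. Promoter windows were found for 27 of the 39 members. Among these 27 genes, AGGTGT was in 5, CTTTGA in 6 (13.8% of all windows), AGATAA in 2 (9.99%), TGTGGT in 9 (14.0%), AGGAAG in 14 (29.5%) and TATAAA in 2 (12.4%). Counted by window, as the background is, 13.9% of the members' 36 windows held AGGTGT and 16.7% CTTTGA, near the share of all windows. TGTGGT was in 27.8% and AGGAAG in 44.4%, above their shares of all windows. AGATAA and TATAAA were each in 5.56% (2 windows), below theirs. None of these differences was tested. A match is a run of letters and does not show binding.

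Cd3g, the gamma chain gene, measured 3.61, 3.3, 4.05, 3.44 and 2.48 CPM in control replicates 1 to 5 and 2.96, 1.51, 0.959, 2.25 and 2.02 CPM in TMA-ARB replicates 6 to 10. Of the TMA-ARB libraries 4 lay below every control, and the fifth, replicate 6, was above control replicate 5. The means were 3.38 ± 0.572 and 1.94 ± 0.757 CPM (SD, n = 5), a log2 fold change of -0.79 ± 0.40 (edgeR unadjusted p = 0.0689). It was nearly as large (-0.77) without control replicates 1 and 2. Cd3d, the delta chain gene, measured 6.36, 1.79, 1.57, 1.07 and 1.51 CPM in control replicates 1 to 5 and 2.05, 1.77, 1.77, 3.07 and 2.63 CPM in TMA-ARB replicates 6 to 10. Control replicate 1 was the highest of all libraries, and the TMA-ARB libraries were otherwise level with or above the other 4 controls. Its log2 fold change of -0.13 ± 0.53 turned to 0.59 without control replicate 1. Cd3e, the epsilon chain gene, measured 1.18, 2.07, 0.979, 0.43 and 1.33 CPM in control replicates 1 to 5 and 1.63, 0.197, 0.59, 0 and 0.742 CPM in TMA-ARB replicates 6 to 10. TMA-ARB replicate 6 lay at the upper end of the controls, and replicate 9 had no count, which allows up to 0.307 CPM there. The log2 fold change was -0.89 ± 0.78, and it ran from -1.59 with TMA-ARB replicate 6 left out to -0.58 with replicate 9 left out. Cd247, the zeta chain gene, measured 1.44, 1.34, 1.5, 1.15 and 0.545 CPM in control replicates 1 to 5 and 1.09, 0.919, 0.369, 0.102 and 1.08 CPM in TMA-ARB replicates 6 to 10. All 5 TMA-ARB libraries lay below the control mean of 1.2 ± 0.388 CPM (SD, n = 5), with control replicate 5 among them, and the log2 fold change was -0.72 ± 0.63, or -0.45 with TMA-ARB replicate 9 left out. Summed over the 4 CD3 chains, the CPM were 12.6, 8.51, 8.09, 6.09 and 5.88 in control replicates 1 to 5 and 7.74, 4.4, 3.69, 5.42 and 6.47 in TMA-ARB replicates 6 to 10. The sums overlapped between groups: TMA-ARB replicates 6 and 10 lay above control replicates 4 and 5.

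**Figure D2:**
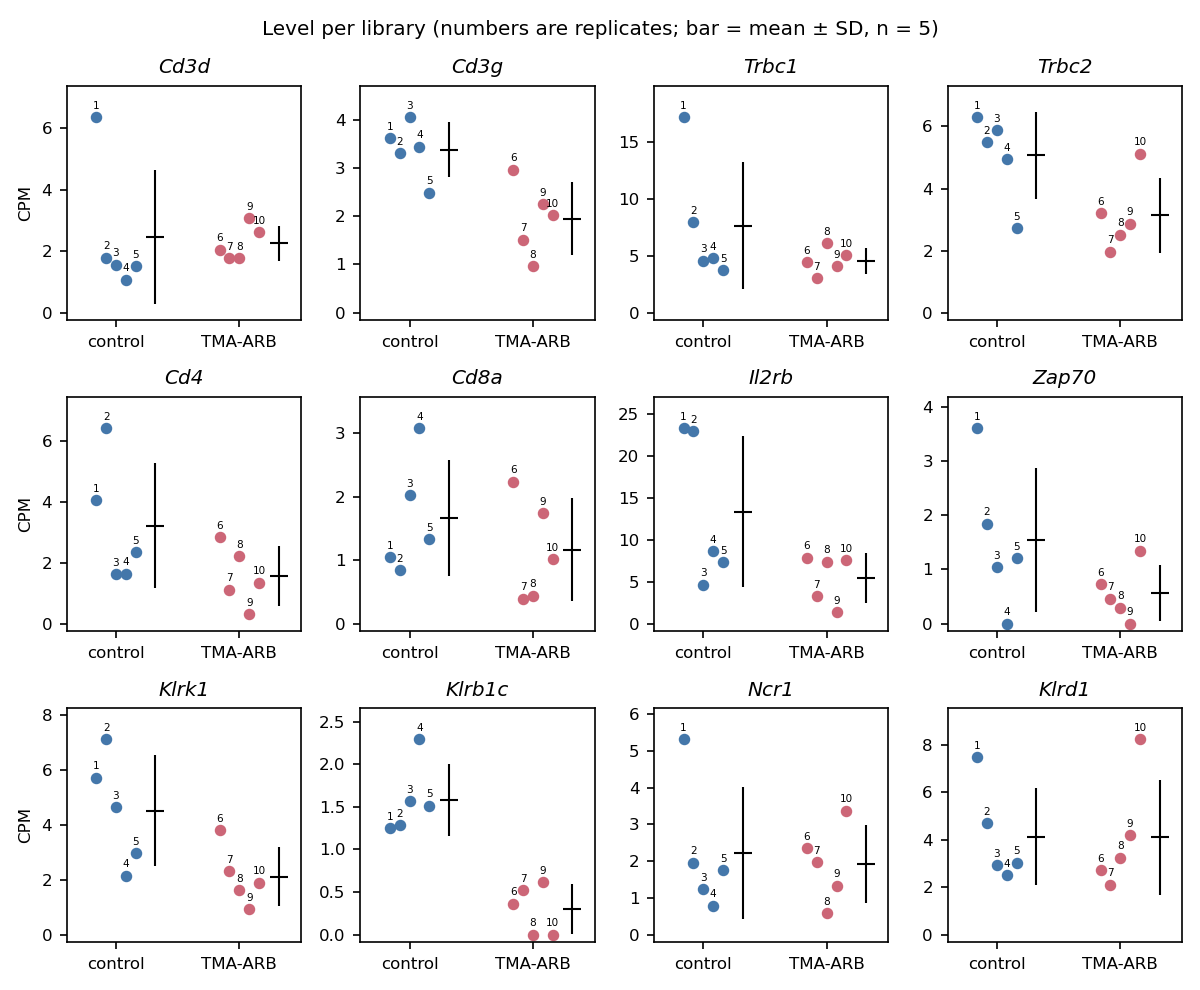
Level in CPM of 12 genes in each library, with replicate numbers beside the points and the mean and SD of each group (n = 5) as a bar. Klrb1c is the gene whose groups do not overlap, and in Cd3d, Trbc1 and Ncr1 control replicate 1 stands above the other controls.

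Coreceptors decide whether a T cell reads class II or class I MHC molecules. Together with the surface genes Cd2, Cd5 and Cd6 they gave a median log2 fold change of -0.74 over 6 tested genes. Cd4, the class II coreceptor gene, measured 4.07, 6.44, 1.63, 1.65 and 2.36 CPM in control replicates 1 to 5 and 2.84, 1.12, 2.21, 0.307 and 1.35 CPM in TMA-ARB replicates 6 to 10. Control replicates 1 and 2 were the highest 2 of the controls and the other 3 controls overlapped the TMA-ARB libraries. The means were 3.23 ± 2.05 and 1.56 ± 0.984 CPM (SD, n = 5), and the log2 fold change of -1.03 ± 0.58 was -0.62 with control replicate 2 left out and -0.25 without both. Cd8a and Cd8b1 encode the 2 chains of the class I coreceptor. Cd8a measured 1.05, 0.84, 2.02, 3.08 and 1.33 CPM in control replicates 1 to 5 and 2.24, 0.394, 0.443, 1.74 and 1.01 CPM in TMA-ARB replicates 6 to 10. Unlike Cd4, it was lowest among controls in replicates 1 and 2 and highest in replicate 4, and TMA-ARB replicates 7 and 8 lay below every control. Cd8b1 measured 0.984, 0.448, 0.979, 1.43 and 1.09 CPM in control replicates 1 to 5 and 1.87, 0.0656, 0.885, 0.614 and 0.0674 CPM in TMA-ARB replicates 6 to 10. TMA-ARB replicate 6 was its highest library and replicates 7 and 10 its lowest. Log2 fold changes were -0.51 ± 0.61 for Cd8a and -0.48 ± 0.79 for Cd8b1, and without control replicates 1 and 2 they were -0.88 and -0.72. Single libraries moved both: Cd8a ran from -0.90 with TMA-ARB replicate 6 left out to -0.16 with control replicate 4 left out, and Cd8b1 from -1.28 with TMA-ARB replicate 6 left out to -0.16 with TMA-ARB replicate 7 left out. The ratio of Cd8a plus Cd8b1 to Cd4, as CPM over CPM, was 0.5, 0.2, 1.84, 2.74 and 1.03 in control replicates 1 to 5 and 1.45, 0.412, 0.6, 7.67 and 0.8 in TMA-ARB replicates 6 to 10. It spanned the same range in both groups apart from TMA-ARB replicate 9, where Cd4 was at 0.307 CPM, and control replicates 1 and 2 had low ratios.

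Of the other surface molecules, Cd2 is an adhesion receptor, Cd5 and Cd6 are scavenger-type receptors that dampen receptor signals, and Cd27 and Cd28 are costimulators. Cd5 measured 2.16, 1.29, 0.326, 1.29 and 0.606 CPM in control replicates 1 to 5 and 0.786, 1.38, 0.0737, 0.102 and 0 CPM in TMA-ARB replicates 6 to 10. It was at or below 0.102 CPM in TMA-ARB replicates 8, 9 and 10, and replicates 6 and 7 were inside the control range. The log2 fold change was -1.23 ± 0.92, and it was -2.11 with TMA-ARB replicate 7 left out, -0.61 without control replicates 1 and 2 and -3.16 under limma-voom. Cd6 had 1.37 ± 1.17 CPM in controls and 0.693 ± 0.613 CPM under TMA-ARB (SD, n = 5) and a log2 fold change of -0.96 ± 0.86, which was -0.40 with control replicate 1 left out, -1.52 with TMA-ARB replicate 6 left out and -2.59 under limma-voom. Cd2 had 1.27 ± 0.727 and 1.2 ± 0.741 CPM, and its log2 fold change of -0.08 ± 0.60 turned positive on leaving out control replicate 3 (0.29) or TMA-ARB replicate 7, 8 or 9 (0.09, 0.14 and 0.01). Cd27 and Cd28 did not pass the filter. Cd28 held 98 counts in controls and 29 under TMA-ARB, with no count in 3 libraries, control replicate 4 with TMA-ARB replicates 9 and 10, and Cd27 held 31 and 34.

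Below the receptor, the 6 signalling genes tested had log2 fold changes from -1.41 to -0.06, with a median of -0.17. Lck, the kinase gene, measured 4.39, 4.65, 1.17, 2.22 and 1.76 CPM in control replicates 1 to 5 and 3.81, 1.64, 2.07, 2.76 and 3.37 CPM in TMA-ARB replicates 6 to 10. Control replicates 1 and 2 were highest, TMA-ARB replicates 6, 9 and 10 came next, and the groups overlapped. Its log2 fold change of -0.06 ± 0.47 turned positive when either of those controls (0.15 for replicate 1 and 0.19 for replicate 2) or TMA-ARB replicate 7 (0.09) or 8 (0.03) was left out. Zap70 measured 3.61, 1.85, 1.04, 0 and 1.21 CPM in control replicates 1 to 5 and 0.725, 0.459, 0.295, 0 and 1.35 CPM in TMA-ARB replicates 6 to 10. Control replicate 4 and TMA-ARB replicate 9 had no count, which allows up to 0.215 and 0.307 CPM, so both groups reached the lowest level. The log2 fold change was -1.41 ± 0.95, -0.83 with control replicate 1 left out and -0.39 without control replicates 1 and 2. Lat, the membrane scaffold of the pathway, had 1.95 ± 1.28 and 1.81 ± 0.398 CPM (SD, n = 5) and a log2 fold change of -0.11 ± 0.52, which was 0.27 without control replicate 1 and 0.05 without control replicate 4. Lcp2 (SLP-76), an adaptor also made by myeloid cells, had 17.9 ± 5.62 and 15.6 ± 9.3 CPM and -0.19 ± 0.38, and 0.03 without TMA-ARB replicate 9. Skap1, an adaptor for integrin activation, had 3.12 ± 1.78 and 2.83 ± 1.31 CPM and -0.14 ± 0.48, which turned positive when control replicate 3, control replicate 4 or TMA-ARB replicate 7 was left out (0.02, 0.18 and 0.03). Sla2, an adaptor that lowers receptor signals, measured 2.82, 1.51, 0.392, 0.716 and 1.09 CPM in control replicates 1 to 5 and 0.604, 0.656, 0.885, 0.716 and 0.405 CPM in TMA-ARB replicates 6 to 10. All 5 TMA-ARB libraries lay below control replicates 1, 2 and 5, and control replicate 3 was the lowest library of all. The log2 fold change was -1.0 ± 0.61, -0.51 with control replicate 1 left out and -0.17 without control replicates 1 and 2. Themis, a factor of thymocyte selection, held 30 counts in controls and 15 under TMA-ARB, and Ubash3a, a phosphatase gene of T cells, 13 and 4; neither was tested.

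**Figure D3:**
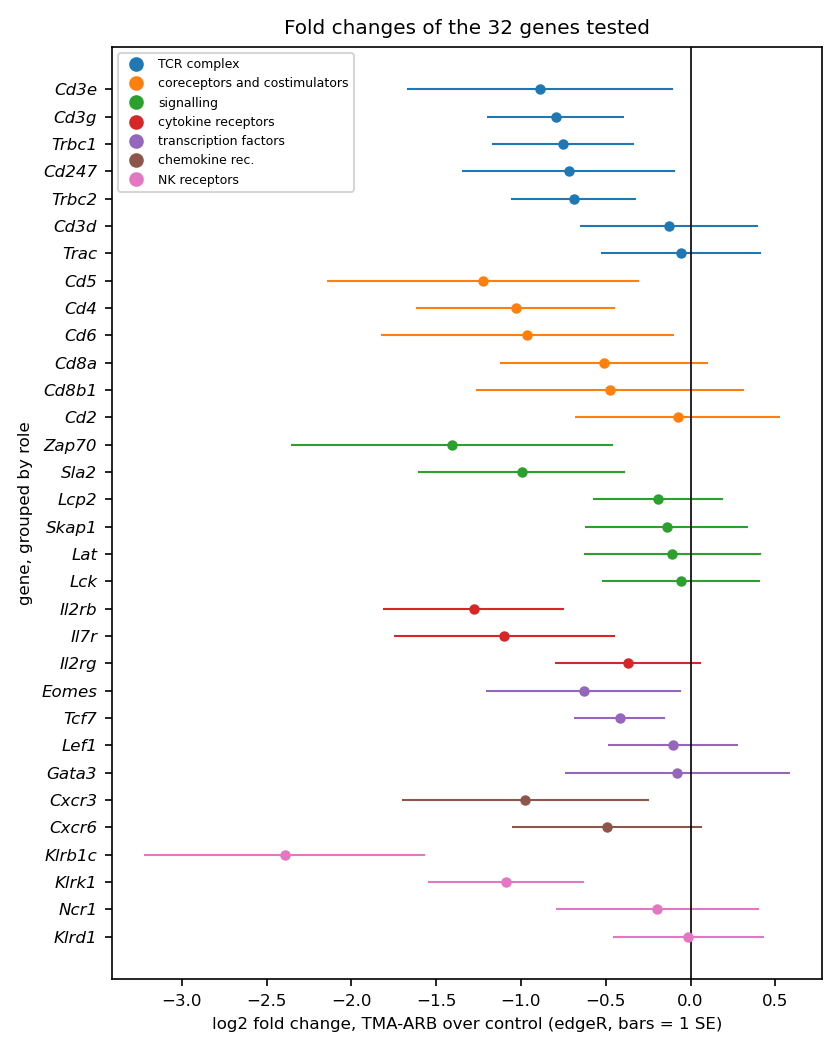
Log2 fold change (TMA-ARB over control, edgeR) of the 32 tested genes with 1 standard error on each side, coloured by role. Points run from -2.39 for Klrb1c to -0.01 for Klrd1, and none passed the adjusted test.

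Of the 3 cytokine receptor genes 2 had log2 fold changes below -1. Il2rb, the beta chain shared by the receptors for interleukin-2 and interleukin-15, measured 23.3, 22.9, 4.63, 8.6 and 7.33 CPM in control replicates 1 to 5 and 7.86, 3.28, 7.38, 1.33 and 7.55 CPM in TMA-ARB replicates 6 to 10. Control replicates 1 and 2 stood far above all other libraries, and the other 3 controls overlapped the TMA-ARB libraries. The means were 13.4 ± 9.02 and 5.48 ± 2.98 CPM (SD, n = 5), a log2 fold change of -1.28 ± 0.53 (edgeR unadjusted p = 0.0324), which became -0.99 with control replicate 1 left out, -0.99 with control replicate 2 left out and -0.32 without both. Il7r, the interleukin-7 receptor chain of naive and memory T cells, measured 4.59, 11.2, 4.31, 0.501 and 2.67 CPM in control replicates 1 to 5 and 1.75, 1.05, 4.79, 1.94 and 1.35 CPM in TMA-ARB replicates 6 to 10. Control replicate 2 was the highest library and control replicate 4 the lowest, so controls spanned the whole range. Its log2 fold change was -1.10 ± 0.65, and it was -0.47 with control replicate 2 left out, -1.61 with TMA-ARB replicate 8 left out and -0.20 without control replicates 1 and 2. Il2rg, the common gamma chain that most leukocytes make, measured 42.5, 37.9, 22.7, 15.4 and 22.9 CPM in control replicates 1 to 5 and 42.2, 31.8, 15.3, 8.29 and 11.6 CPM in TMA-ARB replicates 6 to 10. TMA-ARB replicate 6 was level with the highest control and replicate 9 was lowest, with a log2 fold change of -0.37 ± 0.43 that ran from -0.75 to -0.15 with those TMA-ARB libraries left out in turn and was 0.11 without control replicates 1 and 2. Of its 31-base runs 28.7% also occur in Gm20489, an annotated gene that held no count in the table.

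Among lineage factors, Tcf7 and Lef1 encode the TCF/LEF factors of naive T cells, Gata3 and Bcl11b serve T cell commitment, and Gata3 and Lef1 are also made by mammary epithelium. Tcf7 had 11.9 ± 2.91 and 8.86 ± 2.69 CPM (SD, n = 5) and a log2 fold change of -0.42 ± 0.27. Gata3 measured 2.1, 4.48, 15.9, 15.5 and 3.33 CPM in control replicates 1 to 5 and 8.22, 1.38, 4.79, 16.7 and 8.09 CPM in TMA-ARB replicates 6 to 10. Control replicates 3 and 4 and TMA-ARB replicate 9 were the highest, while control replicate 1, the highest library for 13 of the tested members, was second lowest. Lef1 was likewise low in the first 2 controls, at 5.51 and 8.4 CPM in replicates 1 and 2 and 16.3 CPM in replicates 3 and 4. Log2 fold changes were -0.08 ± 0.66 for Gata3 and -0.10 ± 0.38 for Lef1, and each turned positive without control replicate 3 (0.30 and 0.05), control replicate 4 (0.28 and 0.06) or TMA-ARB replicate 7 (0.20 and 0.13), and Gata3 also without TMA-ARB replicate 8 (0.06). Of 6 epithelial markers tested 5 had positive fold changes (median 0.97, Krt8 1.23 ± 0.42), with summed CPM of 84.0 to 159 in controls and 107 to 242 under TMA-ARB, and their part in the Gata3 and Lef1 values was not tested. Eomes measured 2.56, 3.13, 1.89, 1.86 and 1.51 CPM in control replicates 1 to 5 and 2.72, 0.985, 1.62, 1.53 and 0.202 CPM in TMA-ARB replicates 6 to 10. TMA-ARB replicates 7 and 10 lay below every control and the other 3 within the control range, with a log2 fold change of -0.63 ± 0.57. It was -0.34 with TMA-ARB replicate 10 left out, -1.02 with TMA-ARB replicate 6 left out and -1.67 under limma-voom. Tbx21, which encodes T-bet, measured 0.197, 0.616, 0.522, 0.287 and 0.303 CPM in control replicates 1 to 5 and 0.665, 0.0656, 0, 0 and 0.405 CPM in TMA-ARB replicates 6 to 10. It held 49 counts in all and was not tested. Tox and Bcl11b, also below the filter, held 19 and 54 counts in controls and 20 and 47 under TMA-ARB. Scaled to library size, Bcl11b was higher in mean under TMA-ARB, at 0.756 ± 0.611 CPM against 0.687 ± 0.197 CPM in controls (SD, n = 5). Its highest library was TMA-ARB replicate 9, at 1.84 CPM. Tox averaged 0.251 ± 0.278 CPM in controls and 0.294 ± 0.349 CPM under TMA-ARB.

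The chemokine receptors of effector T cells were low. Cxcr3, the receptor for interferon-induced chemokines, measured 1.64, 1.23, 0.653, 1.22 and 0.727 CPM in control replicates 1 to 5 and 0.604, 0.525, 0.295, 0 and 1.28 CPM in TMA-ARB replicates 6 to 10. Of the TMA-ARB libraries 4 lay below every control and replicate 10 was in the upper part of the control range, with a log2 fold change of -0.97 ± 0.73 that was -1.53 with replicate 10 left out. Cxcr6, found on resident lymphocytes, had 2.2 ± 1.03 and 1.57 ± 1.03 CPM (SD, n = 5) and a log2 fold change of -0.49 ± 0.56, which was -0.22 with control replicate 1 left out, -0.84 with TMA-ARB replicate 6 left out and -0.02 without control replicates 1 and 2.

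NK receptors held the only tested member whose groups did not overlap. Klrb1c (chromosome 6, 128778485 to 128789215, mm10) encodes NK1.1, an activating lectin-like receptor. The 245 bases before its RefSeq start site that lie outside annotated exons are shown with the same motifs in capitals, since this was the gene whose groups did not overlap. Unlike the CD3 windows, this window lies inside the gene as GENCODE annotates it, where the gene starts further upstream.
Klrb1c, minus strand, chr6:128788642-128788886: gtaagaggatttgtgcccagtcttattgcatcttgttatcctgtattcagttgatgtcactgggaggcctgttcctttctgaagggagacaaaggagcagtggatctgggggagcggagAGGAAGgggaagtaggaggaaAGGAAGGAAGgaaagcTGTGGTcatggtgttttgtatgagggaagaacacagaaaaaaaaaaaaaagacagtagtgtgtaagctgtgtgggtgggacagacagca

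This window held 1 TGTGGT and 3 AGGAAG matches, of which 2 overlap, and no match to the other 4 motifs. Klrb1c measured 1.25, 1.29, 1.57, 2.29 and 1.51 CPM in control replicates 1 to 5 and 0.363, 0.525, 0, 0.614 and 0 CPM in TMA-ARB replicates 6 to 10. Every TMA-ARB library lay below every control. Controls held 19 to 32 counts per library and TMA-ARB libraries at most 8. Only the controls reached the level of the expression filter, so a gene this low under TMA-ARB was tested because controls were high. Among all genes tested, 0.363% (51 of 14063) were separated in this direction. TMA-ARB replicates 8 and 10 had no count, which allows up to 0.221 and 0.202 CPM. The means were 1.58 ± 0.421 and 0.3 ± 0.289 CPM (SD, n = 5), from 123 counts in controls and 20 under TMA-ARB. The log2 fold change was -2.39 ± 0.83 (edgeR unadjusted p = 0.0121, adjusted p = 0.997). It ran from -2.75 to -2.06 when each library was left out in turn, was -2.56 without control replicates 1 and 2, and was -1.59 and -3.33 in the libraries under and over a 5% mitochondrial share. Limma-voom with sample weights gave -4.17 (unadjusted p = 0.000306, adjusted p = 0.434), the lowest unadjusted p of a member among the 3 tools when all 10 libraries were used. Of the 31-base runs of Klrb1c transcripts 21.2% occur in other genes, most of them in the annotated gene Gm44511 (13.1%) and others in its relatives Klrb1a and Klrb1b. Klrb1b had 4.74 ± 2.14 CPM in controls and 3.41 ± 2.29 CPM under TMA-ARB (log2 fold change -0.48). With the rows of Klrb1c, Klrb1a and Klrb1b merged, after the data had been seen and without Gm44511, the groups overlapped and the log2 fold change was -0.77 ± 0.41. How reads were divided among these genes was not tested.

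Klrk1, which encodes NKG2D, measured 5.71, 7.11, 4.63, 2.15 and 2.97 CPM in control replicates 1 to 5 and 3.81, 2.3, 1.62, 0.921 and 1.89 CPM in TMA-ARB replicates 6 to 10. TMA-ARB replicates 8, 9 and 10 lay below every control and all 5 lay below the control mean. The means were 4.51 ± 2.01 and 2.11 ± 1.07 CPM (SD, n = 5), a log2 fold change of -1.09 ± 0.46 (edgeR unadjusted p = 0.0327) that was -0.61 without control replicates 1 and 2. Ncr1, which encodes NKp46, measured 5.31, 1.96, 1.24, 0.788 and 1.76 CPM in control replicates 1 to 5 and 2.36, 1.97, 0.59, 1.33 and 3.37 CPM in TMA-ARB replicates 6 to 10. Control replicate 1 was highest and TMA-ARB replicate 10 second, and the log2 fold change of -0.20 ± 0.60 became 0.42 with control replicate 1 left out and 0.04 with TMA-ARB replicate 8 left out. Klrd1, which encodes the CD94 partner of NKG2 receptors, measured 7.48, 4.7, 2.94, 2.51 and 3.03 CPM in control replicates 1 to 5 and 2.72, 2.1, 3.25, 4.2 and 8.23 CPM in TMA-ARB replicates 6 to 10. Its highest libraries were TMA-ARB replicate 10 and control replicate 1, and the group means were 4.13 ± 2.05 and 4.1 ± 2.43 CPM. The log2 fold change of -0.01 ± 0.45 became 0.31 with control replicate 1 left out, and it was also positive on leaving out control replicate 2 (0.04) or TMA-ARB replicate 6, 7 or 8 (0.11, 0.16 and 0.06). Among the 4 NK receptors, then, Klrb1c and Klrk1 had log2 fold changes below -1 and Ncr1 and Klrd1 lay within 1 SE of 0, a difference that was not tested. Summed NK receptor CPM over summed CD3 chain CPM was 1.57, 1.77, 1.28, 1.27 and 1.58 in control replicates 1 to 5 and 1.2, 1.57, 1.48, 1.3 and 2.08 in TMA-ARB replicates 6 to 10. These ratios overlapped, with means of 1.49 ± 0.214 and 1.53 ± 0.344 (SD, n = 5).

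Between genes, levels were compared per kilobase of exon. Highest in mean over all libraries were Il2rg at 10.5, Trbc1 at 8.14 and Trbc2 at 5.92 CPM per kilobase, followed by Tcf7 at 3.95, Lcp2 at 3.76 and Klrd1 at 3.21. Il2rg, Tcf7 and Lcp2 are also made by cells other than T and NK cells. The CD3 chains lay lower, at 1.3 for Cd3d, 0.813 for Cd3g, 0.224 for Cd3e and 0.179 for Cd247, and Ubash3a was lowest at 0.0091. Exon lengths come from all annotated exons of a gene, so genes with rarely used exons read low.

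Libraries of one group differed widely. Control replicate 1 was the highest library for 13 of the 32 tested members and control replicate 2 for 6, together 19, and controls held the maximum for 27. The lowest value was in TMA-ARB replicate 7 for 9 members and in TMA-ARB replicate 9 for another 9. Against the control means, the median member stood on a log2 scale at 0.43 and 0.16 in control replicates 1 and 2 and at -0.10, -0.36 and -0.30 in control replicates 3 to 5. In TMA-ARB replicates 6 to 10 it stood at 0.0006, -0.75, -0.65, -0.51 and -0.36. TMA-ARB replicate 6 was thus at the control level, and control replicates 4 and 5 and TMA-ARB replicate 10 were close to each other. TMA-ARB replicate 9 had the highest mitochondrial share (25%) and counts for 31 of the 39 members, against 33 to 39 elsewhere.

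Several members differed in value across the 5% line of mitochondrial share, which leaves 3 controls against 2 TMA-ARB libraries below it and 2 against 3 at or above it. No member passed the test on either side, and the difference between the sides was not tested. Control replicates 1, 2 and 5 are the controls below the line. A difference by mitochondrial share cannot be told apart from one that rests on control replicates 1 and 2. Fold changes were negative below the line and positive above it for Il7r (-2.13 and 0.15), Zap70 (-1.88 and 0.08), Sla2 (-1.50 and 0.26) and Trbc1 (-1.36 and 0.12). The same order held for Klrd1 (-1.06 and 0.93), Cd3d (-0.74 and 0.90), Ncr1 (-0.46 and 0.78) and Lck (-0.39 and 0.68). It was the other way round for Cd8a (0.31 and -1.28), Cd8b1 (0.23 and -1.21), Gata3 (0.55 and -0.69), Il2rg (0.11 and -0.70), Lcp2 (0.25 and -0.47), Cd2 (0.19 and -0.38), Skap1 (0.04 and -0.55) and Trac (0.09 and -0.05). Il2rb (-1.67 and -0.28), Cd4 (-1.11 and -0.33) and Cxcr6 (-0.60 and -0.01) were negative on both sides and closer to 0 above the line, and Cd247 (-0.14 and -1.32), Cd3g (-0.48 and -1.11) and Klrk1 (-0.78 and -1.20) were closer to 0 below it.

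**Figure D4:**
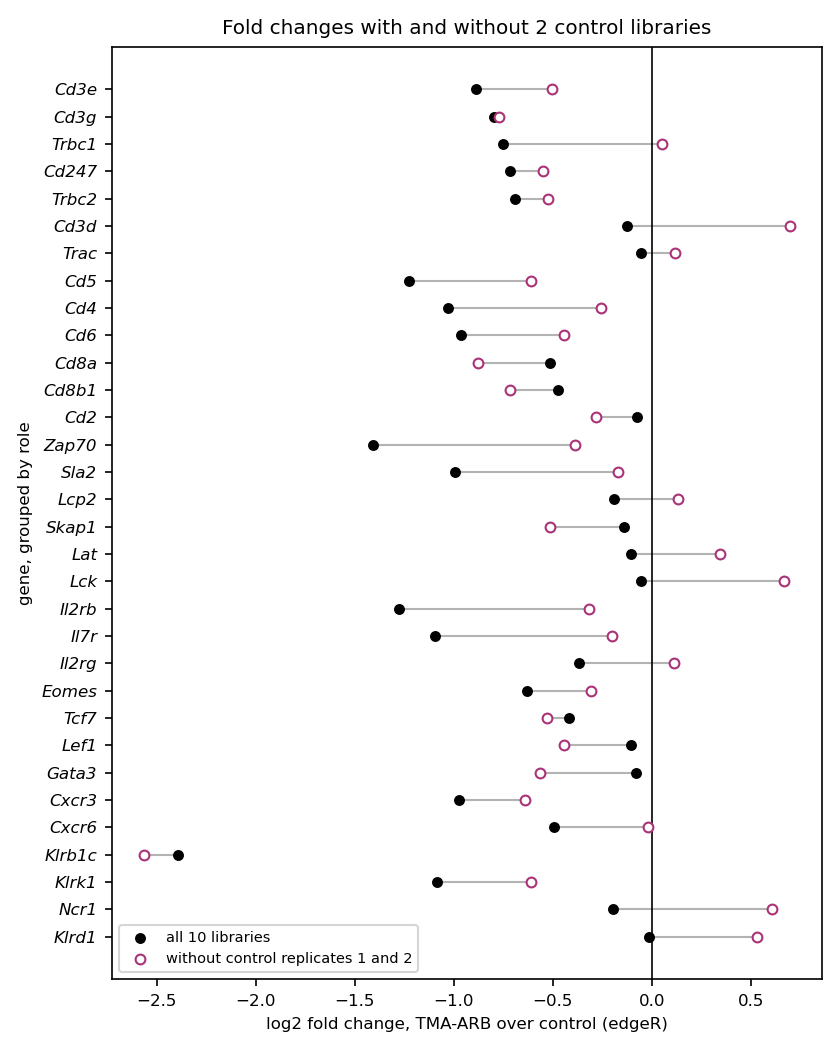
Log2 fold change of each tested gene with all 10 libraries (filled) and without control replicates 1 and 2 (open), edgeR. Open points lie above 0 for 9 genes, among them Cd3d, Lck, Ncr1 and Klrd1, and Klrb1c and Cd3g are little moved.

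Genes of other leukocytes were read beside the members. Of 6 genes made by all leukocytes 6 were negative and 0 passed the test, with a median log2 fold change of -0.35 and summed levels of 374 to 600 CPM in controls and 240 to 531 CPM under TMA-ARB. Ptprc was at -0.18 ± 0.21 and Cd52 at -0.51 ± 0.21. Per 100 CPM of Ptprc, the CPM of the CD3 chains were 14.2, 8.61, 14.5, 10.2 and 9.66 in control replicates 1 to 5 and 9.42, 5.76, 7.01, 9.12 and 13 in TMA-ARB replicates 6 to 10. The groups overlapped, with means of 11.4 ± 2.72 and 8.86 ± 2.76 (SD, n = 5). With log2 Ptprc as a covariate 26 of the 32 members were negative, with a median of -0.47. Of 7 macrophage and monocyte genes 5 were negative (median -0.48, summed 710 to 1162 CPM in controls and 283 to 1279 under TMA-ARB), and Ly6c2 was at -1.09 ± 0.57. Of 5 dendritic cell genes tested 4 were negative (median -0.57), and Xcr1 was at 1.06 ± 0.57. Medians were -0.11 over 4 plasmacytoid dendritic cell genes, -0.04 over 2 innate lymphoid genes, -0.26 over 4 endothelial genes and -0.43 over 5 fibroblast genes. None of these marker genes passed the edgeR test. These cells also make Cd4, Il7r, Lcp2 and Il2rg, and their part in those values was not tested.

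Lymphocytes of a lymph node were looked for by other markers. The 8 B cell and plasma cell genes in the table summed to 1.51 to 3.25 CPM in controls and 1.55 to 3.24 CPM under TMA-ARB. Madcam1 and Ccl19, genes of lymph node stroma, had no count in any library, and Glycam1 had 2, while Ccl21a had 1073. Nearly all of these were in control replicate 3 (37.9 CPM) and TMA-ARB replicate 10 (29.9 CPM), with at most 3.17 CPM in any other library. Summed over all 39 members, TMA-ARB replicate 10 was at 119 CPM, in a group that ran from 92.0 to 165 CPM. Control replicate 3 was at 148 CPM, among controls of 123 to 212 CPM. The part of lymph node tissue in the T cell values was not tested. Ccr7, a homing receptor of naive lymphocytes, had a log2 fold change of -0.95 ± 0.53. Genes of the gamma-delta receptor constant regions held 11 (Tcrg-C1), 17 (Tcrg-C2) and 30 counts (Tcrg-C4) in all libraries together. Variable, diversity and joining segments of all T cell receptor loci held 155 counts over 44 of 210 segments, 85 in controls and 70 under TMA-ARB, too few to describe the receptors used.

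Further genes of the receptor pathway, from a list of 39 of which 35 were tested, are mostly not confined to T cells. Of the 35, 27 were negative and 8 positive, with a median of -0.25, and 0 passed the test or had an unadjusted p under 0.05. Ptpn22, a phosphatase gene that restrains receptor signals, was at -0.58 ± 0.34, Vav1, an exchange factor gene, at -0.36 ± 0.24, and Itgal, an integrin gene of leukocytes, at -0.36 ± 0.25. Of 15 further NK receptors and factors tested 12 were negative, with a median of -0.50, and 0 passed. Id2, a factor needed for NK cells, was at -0.70 ± 0.28, Klrc1, which encodes NKG2A, at -0.76 ± 0.33, and Cd244, a receptor of the SLAM family, at -0.93 ± 0.46. Klra4 and Klra1, of the Ly49 family and chosen here after their values were seen, were at 0.43 ± 0.32 and 0.40 ± 0.33. Without scaling to gene length, Klra4 averaged 115 ± 35.9 CPM in controls. The 4 NK receptors of the list together averaged 12.4 ± 4.91 CPM there, and Ptprc of all leukocytes 72.7 ± 19.6 CPM. Klra4 was highest in TMA-ARB replicate 7, at 286 CPM, where those 4 NK receptors summed to 6.89 CPM. Whether the Klra4 counts come from NK cells was not tested.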

How the data were processed

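Poly(A) RNA of 10 MCa-M3C tumours in FVB/N mice, 5 control and 5 TMA-ARB, was sequenced from strand-specific libraries, per the labels' protocols. The authors deposited 1 table of estimated counts per gene, made with Salmon on mm10 per the submitters' processing notes. Of its version, annotation and settings nothing is recorded in the labels, and mm10 is not the genome of the FVB/N strain. The deposited values were all whole numbers, and the 10 columns were matched to samples by their names. Groups were taken from the sample titles. Totals of 12742953 to 16884621 counts leave 3 counts, the upper limit allowed by a count of 0, at 0.168 to 0.307 CPM. This covers counting error only.

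Counts were fitted with edgeR 4.0.16 (R 4.3.3; TMM scaling, filterByExpr, robust quasi-likelihood test) over the whole table, and p-values were adjusted by Benjamini-Hochberg over 14063 genes at a threshold of 0.05. Fold changes are TMA-ARB over control, and the SE is the fold change over the square root of F. Fits were tested on simulated data. Alternatives were DESeq2 1.42.0, limma-voom 3.58.1 with sample weights, RLE scaling, other filters, covariates, splits at a mitochondrial share of 5% and leaving out libraries. Gene positions, exon lengths and transcripts came from GENCODE M21 and promoter windows from RefSeq GRCm38.p6. The members and lists were chosen with earlier results of these data known. Library values are printed for the receptor complex, Cd4, Cd8a, Cd8b1, Lck, Zap70, NK receptors, Tbx21, Eomes, the 6 members of smallest p and members whose groups did not overlap. For Cd5, Sla2, Il7r, Il2rg, Gata3 and Cxcr3 they were added after the values were seen. Of other lists, up to 3 genes of smallest p are named, and some marker genes are not reported here.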

Additional observations from a re-analysis of the deposited data

Results flagged for a closer look

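In 78 pairs of gene and group, the library farthest from the others was compared with the range of its group of 5 (Dixon's ratio, critical value 0.71), and 4 pairs exceeded it, where chance alone gives about 1 in 20. Control replicate 1 stood apart for Cd3d, at 6.36 CPM against 1.79 CPM in the next control (ratio 0.865). It also stood apart for Ncr1, at 5.31 CPM against 1.96 CPM (0.741). TMA-ARB replicate 8 stood apart for Il7r, at 4.79 CPM against 1.94 CPM (0.761). TMA-ARB replicate 9, the library of highest mitochondrial share, stood apart for Bcl11b, at 1.84 CPM against 0.590 CPM (0.865), which is a low count in a gene below the expression filter.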

How the results depend on the processing

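The count of members passing the test was 0 under every alternative run. Over all genes the count went from 0 to 2 with DESeq2 and to 4 within the 5 libraries of 5% or more mitochondrial share, and it was 0 under the others. The members' median log2 fold change ran from -0.87 (without TMA-ARB replicate 6) to -0.47 (without control replicate 2) when each library was left out. It was -0.32 without control replicates 1 and 2, over 33 genes that passed the filter there. Of the single genes tested, Klrb1c, Klrk1, Il2rb, Cd3e, Cd3g, Cd247, Trbc2, Cd4, Cd5, Cd6, Cxcr3, Cxcr6, Eomes and Tcf7 were negative under each alternative that gave them a value. A mean of at least 5 CPM left 7 members, of these Il2rb and Tcf7, and Cd5 and Cd6 had no value at 5% or more mitochondrial share. Others turned positive, and the cause was not tested. Under limma-voom with sample weights these were Cd3d (0.37), Cd2 (0.10), Lck (0.39), Lef1 (0.12), Lat (0.57), Skap1 (0.30), Gata3 (0.36), Klrd1 (0.53) and Ncr1 (0.22). Adjusted for the log2 mitochondrial share they were Cd3d (0.029), Lck (0.25), Trac (0.085), Il2rg (0.12), Lat (0.058), Lcp2 (0.25) and Ncr1 (0.31). Adjusted for log2 Ptprc they were Cd3d (0.19), Lck (0.32), Trac (0.051), Lat (0.065), Klrd1 (0.0062) and Ncr1 (0.16). Under 5% mitochondrial share they were Cd2 (0.19), Trac (0.094), Cd8a (0.31), Cd8b1 (0.23), Il2rg (0.11), Lcp2 (0.25), Skap1 (0.037) and Gata3 (0.55). At 5% or more they were Cd3d (0.90), Lck (0.68), Zap70 (0.078), Trbc1 (0.12), Il7r (0.15), Sla2 (0.26), Klrd1 (0.93) and Ncr1 (0.78). Without control replicates 1 and 2 they were Cd3d (0.70), Lck (0.67), Trac (0.12), Trbc1 (0.054), Il2rg (0.11), Lat (0.34), Lcp2 (0.13), Klrd1 (0.53) and Ncr1 (0.61). Leaving out each library in turn gave ranges of -0.31 to 0.59 for Cd3d, -0.25 to 0.19 for Lck, -0.29 to 0.15 for Trac, -0.32 to 0.27 for Lat, -0.43 to 0.31 for Klrd1 and -0.48 to 0.42 for Ncr1. They were -0.36 to 0.29 for Cd2, -0.28 to 0.13 for Lef1, -0.38 to 0.18 for Skap1, -0.54 to 0.30 for Gata3 and -0.44 to 0.026 for Lcp2. No paired analysis was possible because the replicate numbers, 1 to 5 in controls and 6 to 10 under TMA-ARB, are not shared between groups. At these depths 14 of 39 members averaged under 1 CPM, and differences could have been missed. Klrb1c, whose groups did not overlap, also had an edgeR adjusted p of 0.997. The smallest difference detectable for these members was not estimated.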
